A study of Homo sapiens with 10 samples.

Results

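The first and the second STAMBP knockout line (KO1 and KO2) were compared gene by gene, using the 4 knockout libraries of a series of 10. The comparison takes the KO1 libraries (replicates 1 and 2) against the KO2 libraries (replicates 1 and 2) over the 21063 genes, of 60898 rows, that passed the filter on low counts. Every library is labelled NPC, for neural progenitor cells, and comes from H1, a widely used human embryonic stem cell line of blastocyst origin, at a stage written P3. Besides KO1 and KO2 there are unedited cells (genotype WT), STAMBP-KO cells with added STAMBP (written KO+STAMBP) and STAMBP-KO cells with added CFLAR (written KO+CFLAR), with 2 libraries in each of the 5 groups. The labels give neither the line that a construct went into nor the way the lines were edited, and they leave unsaid whether a line is 1 clone and whether replicates were grown apart. A p-value here covers the spread between the libraries only, which may be technical. Levels are counts per 1000000 counts of a library after TMM scaling (CPM), the order of values within a group is replicate 1 then replicate 2, and differences are log2 KO1 minus KO2 with a standard error (SE). Mean levels are given ± SD over the 2 libraries of a group.

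STAMBP is an endosomal deubiquitinase that removes ubiquitin chains from receptors sorted by the ESCRT machinery, and its loss in humans causes a microcephaly syndrome. Setting lines of the same genotype side by side shows how far their profiles differ, though line, culture and library handling cannot be told apart here. Among the genes described below are golgins, coiled-coil proteins that tether vesicles to the Golgi, and scaffolds of the centrosome, cilium, nuclear envelope and kinetochore. Coiled-coil rods are built largely of lysine, glutamate and glutamine, whose codons are rich in A.

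Totals were 16495116 to 20832700 counts per library, with 19562114 and 16604536 counts in KO1 and 16500792 and 18958213 in KO2. A count of 0 allows a level of up to 0.165 and 0.195 CPM in the KO1 libraries and up to 0.198 and 0.173 CPM in the KO2 libraries, taking 3 counts as the floor, for counting error only. Replicates differed by 3.22 chi-square units per gene in KO1 and 2.96 in KO2, above counting noise, so none was treated as a duplicate. The labelled cell type was checked against its markers. Neural progenitor markers went 2 ways in both lines: PAX6 stood at 207 CPM in KO1, 209 in KO2 and 181 in WT, and NES at 654, 668 and 774 CPM, whereas SOX1 was at 0.526, 0.434 and 147 CPM and FABP7 at 0.408, 0.483 and 1124 CPM. Of 36 progenitor genes, 7 were below 1 CPM in KO1 and 7 in KO2 against 0 in WT, and only NEUROG1 in KO1 had no count. The summed level of 36 epithelial and non-neural ectoderm genes was 12296 to 12430 CPM in KO1 and 12595 to 12857 in KO2, against 139 to 141 in WT. In bulk RNA, fewer cells of a type and less RNA per cell cannot be told apart. Both lines showed this departure from the NPC label, and the progenitor sum was 5126 to 5198 CPM in KO1 and 5183 to 5201 in KO2.

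STAMBP was examined first and was not called between the lines. STAMBP measured 19.5 and 16.9 CPM in KO1, 19.2 and 18.9 in KO2, 43.4 and 47.2 in WT, 40.4 and 45.3 with added STAMBP and 42.9 and 40.0 in libraries labelled KO+CFLAR. The difference between the lines was -0.06 ± 0.11 (SE, adjusted p = 0.979), with a 95% interval of -0.29 to 0.18. The labels do not say which part of the gene was edited, so the remaining transcript does not measure the protein. STAMBPL1, the closest relative of STAMBP, averaged 1.41 ± 0.04 CPM in KO1, 1.66 ± 0.19 in KO2 and 3.85 ± 0.5 in WT (log2 difference -0.25 ± 0.31, adjusted p = 0.958). CFLAR, the inhibitor of caspase-8 activation used in the other rescue, averaged 253 ± 5.9 CPM in KO1, 255 ± 12 in KO2 and 32.3 ± 2.7 in WT (log2 difference -0.02 ± 0.05, adjusted p = 0.984). It averaged 32.1 ± 0.041 CPM in KO+STAMBP and 30.4 ± 1.4 CPM in the libraries labelled KO+CFLAR. In those last libraries STAMBP was above both knockout lines and CFLAR was not above WT, which goes against their label, so what is said of them below rests on the label alone.

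Across the transcriptome the lines were as close as replicates. Over the 10781 genes with a mean of at least 10 CPM, the median absolute log2 difference was 0.0719 between the KO1 libraries and 0.0617 between the KO2 libraries. In the 4 pairs of a KO1 with a KO2 library it was 0.0644 to 0.0715, and 9 to 13 genes differed over 2-fold in any of the 6 pairs. In edgeR's quasi-likelihood test, 30 of 21063 genes had an adjusted p (Benjamini-Hochberg) under 0.05 and are termed called, which is 0.142% of those tested. Of these, 26 (0.123%) were higher in KO1 and 4 (0.019%) were lower, and 9 differed at least 2-fold, 6 of them higher and 3 lower in KO1. For comparison, KO1 against WT called 73.6% of the same genes (36.1% higher and 37.5% lower), and KO2 against WT called 73.5% (36.2% higher and 37.3% lower), with the WT libraries shared by both. At an unadjusted p under 0.05 there were 1138 genes, or 5.40%, of which 549 were higher and 589 lower in KO1. The 95% interval of the line difference lay within 1 log2 unit of 0 for 15089 genes (71.6%), and for 10755 of the 10781 genes at 10 CPM or more, where the median SE was 0.0693. For the remaining genes this depth does not show whether the lines act alike. All 30 called genes had KO1 and KO2 libraries that did not overlap, as had 7011 (33.3%) of the tested genes. With a library left out the count ran from 15, without KO2 replicate 2 (14 higher and 1 lower), to 51, without KO1 replicate 2. The excess of higher calls was absent without KO1 replicate 2, where 25 were higher and 26 lower in KO1.

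**Figure D1:**
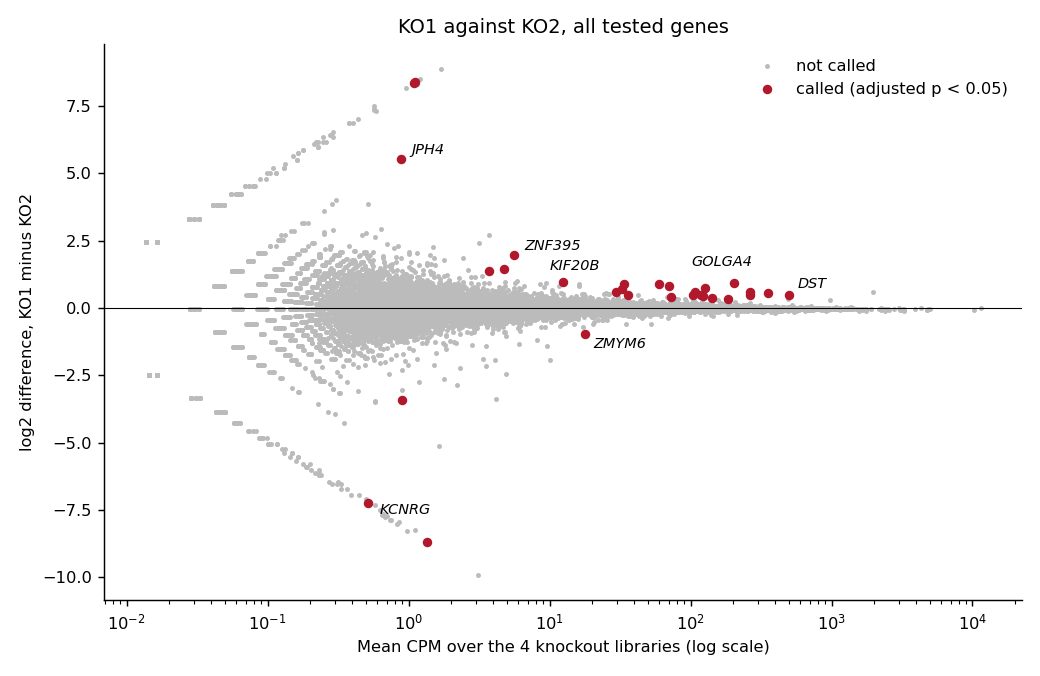
Log2 difference between KO1 and KO2 (vertical axis) against the mean CPM over the 4 knockout libraries (horizontal log axis), one point per tested gene, with the 30 called genes in red. The called genes above 10 CPM lie between 0 and 1 on the log2 scale except ZMYM6, and the diagonal arms hold genes with 0 counts in one of the lines, whose fitted difference depends on the prior count.

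The called genes were read first by their coding sequence. A window of 30 bases was called A-rich when at least 15 of its bases (50%) were A, and the windows were counted along the longest coding sequence of each gene in GENCODE release 29. This feature was chosen after the called genes were seen, so it is a description with no test. The stretch of 60 bases with the most A is printed below from GRCh38 in coding-strand sense for 6 called genes that share windows of this kind. It is printed too for 2 genes of long coding sequence that were not called. These 2 were picked after their values were seen and do not stand for all uncalled genes. Of 34 genes with 900 or more windows, 19 were not called, among them TTN (4199 windows, -0.01). Capitals mark A.
GOLGA4: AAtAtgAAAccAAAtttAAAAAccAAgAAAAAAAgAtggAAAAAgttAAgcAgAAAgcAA
TRIP11: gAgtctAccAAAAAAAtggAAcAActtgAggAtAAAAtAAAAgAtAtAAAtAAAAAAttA
CEP290: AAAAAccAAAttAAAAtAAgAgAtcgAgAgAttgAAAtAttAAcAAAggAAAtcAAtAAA
EEA1: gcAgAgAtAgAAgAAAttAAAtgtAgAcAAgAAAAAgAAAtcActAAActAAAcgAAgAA
CENPF: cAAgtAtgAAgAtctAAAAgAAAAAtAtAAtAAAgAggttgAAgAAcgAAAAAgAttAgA
KIF20B: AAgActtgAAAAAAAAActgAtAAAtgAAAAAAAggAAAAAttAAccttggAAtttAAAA
DYNC1H1: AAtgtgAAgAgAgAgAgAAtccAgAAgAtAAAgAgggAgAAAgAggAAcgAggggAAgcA
AHNAK: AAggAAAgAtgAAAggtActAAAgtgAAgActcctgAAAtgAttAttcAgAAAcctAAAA
The 6 stretches of the called genes hold 34 to 37 A in 60 bases. They lie at chr3:37324717-37324776 (plus strand), chr14:92014435-92014494 (minus strand), chr12:88120172-88120231 (minus strand), chr12:92780310-92780369 (minus strand), chr1:214619133-214619192 (plus strand) and chr10:89723983-89724042 (plus strand). DYNC1H1, the heavy chain of cytoplasmic dynein (chr14:102010358-102010417, plus strand), and AHNAK, a giant scaffold protein (chr11:62532919-62532978, minus strand), reach 29 A in their richest stretch. Their differences between the lines were -0.05 and -0.06.

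The golgins GOLGA4, TRIP11, GOLGB1 and GCC2 were higher in KO1 than in KO2, by 1.41-fold to 1.88-fold. GOLGA4 (ENSG00000144674, chromosome 3, 37243177 to 37366751, plus strand), a golgin of the trans-Golgi network, had the lowest p of all genes and carries 1298 A-rich windows. GOLGA4 reached 262 and 266 CPM in KO1, 142 and 139 in KO2, 62.9 and 61.4 in WT, 64.4 and 60.6 with added STAMBP and 72.2 and 59.5 in libraries labelled KO+CFLAR. The difference was 0.91 ± 0.06 (SE, adjusted p = 1.07e-05), a 1.88-fold higher level in KO1. Both knockout lines lay above WT, KO1 by 2.09 and KO2 by 1.18 on the log2 scale, and KO2 was the line nearer to WT. TRIP11 (ENSG00000100815, chromosome 14, 91965991 to 92040896, minus strand), the golgin GMAP210 of the cis-Golgi, has 1200 windows. The level of TRIP11 was 87.1 and 92.0 CPM in KO1, 52.2 and 49.9 in KO2, 38.4 and 34.2 in WT, 39.7 and 37.6 with added STAMBP and 42.2 and 39.0 in libraries labelled KO+CFLAR. The lines differed by 0.81 ± 0.06 (SE, adjusted p = 5.17e-05), and both were above the other 3 groups. GOLGB1 (ENSG00000173230, chromosome 3, 121663199 to 121749767, minus strand), the golgin giantin, has 1204 windows. Levels of GOLGB1 were 322 and 316 CPM in KO1, 208 and 211 in KO2, 136 and 119 in WT, 114 and 110.3 with added STAMBP and 124 and 118 in libraries labelled KO+CFLAR. Its line difference was 0.60 ± 0.05 (SE, adjusted p = 7.43e-05). GCC2 (ENSG00000135968, chromosome 2, 108448561 to 108509415, plus strand), the trans-Golgi golgin GCC185 with 1095 windows, repeated the order. GCC2 was found at 133 and 143 CPM in KO1, 94.0 and 102 in KO2, 32.5 and 30.2 in WT, 32.1 and 34.6 with added STAMBP and 39.0 and 36.7 in libraries labelled KO+CFLAR. The log2 difference was 0.50 ± 0.06 (SE, adjusted p = 0.000668), and the SD of the level was 6.8 CPM between the KO1 libraries and 5.3 CPM between the KO2 libraries. For all 4 genes the libraries of both rescues, as labelled, stayed below both knockout lines.

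Most other Golgi proteins were at like levels in the lines. In a list of 22 golgins and Golgi tethers, put together after the values were seen, 4 were called higher and 0 lower in KO1, and the median was -0.02 beside -0.01 over all tested genes. The 7 members with at least 300 A-rich windows had a median of 0.50, from -0.11 to 0.91. The 15 members under 300 windows had a median of -0.04, ran from -0.10 to 0.04, and 0 of them were called. At an unadjusted p under 0.05, 4 of the 22 were higher and 1 was lower in KO1. GOLGA2, or GM130, averaged 151 ± 2.7 CPM in KO1 and 157 ± 1.7 in KO2, and GOLGA3 averaged 182 ± 4.3 and 195 ± 11 CPM. TMF1, a golgin with 391 windows, averaged 138 ± 5.9 and 139.6 ± 4.1 CPM, with WT at 42.6 ± 0.57. Both lines were thus well above WT in TMF1 as in GOLGA4, and of the pair only GOLGA4 was called between them. CCDC186, with 682 windows, differed by 0.13 ± 0.06 (SE, adjusted p = 0.908).

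On endosomes, EEA1 (ENSG00000102189, chromosome 12, 92770637 to 92929331, minus strand), the early endosome tether that captures incoming vesicles, was higher in KO1. EEA1 stood at 132 and 128 CPM in KO1, 86.2 and 86.4 in KO2, 29.4 and 31.0 in WT, 27.3 and 24.9 with added STAMBP and 29.5 and 25 in libraries labelled KO+CFLAR. The difference was 0.59 ± 0.06 (SE, adjusted p = 0.000223), with 1053 A-rich windows in the coding sequence. It was the single call among 36 genes of the ESCRT machinery and its endosomal partners, the pathway in which STAMBP acts, whose median was -0.02. Against WT, 27 of the 36 were called higher and 6 lower in KO1 (median 0.56), where 73.6% of all tested genes were called, and 28 were higher and 5 lower in KO2 (median 0.58), where 73.5% were.

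Scaffolds of the centrosome and cilium followed. AKAP9 (ENSG00000127914, chromosome 7, 91940867 to 92110673, plus strand), a large anchor of protein kinase A at the centrosome and Golgi, has 2151 windows. AKAP9 measured 158 and 160.0 CPM in KO1, 94.8 and 96.3 in KO2, 109.8 and 101 in WT, 135 and 132 with added STAMBP and 154 and 132 in libraries labelled KO+CFLAR. The lines differed by 0.73 ± 0.07 (SE, adjusted p = 0.000107). KO1 was above WT by 0.59 (adjusted p = 5.97e-07), while KO2 stood at -0.14 from WT (adjusted p = 0.0721). CEP290 (ENSG00000198707, chromosome 12, 88049014 to 88142216, minus strand), a protein of the ciliary transition zone with 1935 windows, had KO1 near the WT level and KO2 below it. CEP290 reached 42.7 and 45.6 CPM in KO1, 23.6 and 24.0 in KO2, 45.5 and 43.0 in WT, 44.6 and 42.0 with added STAMBP and 54.1 and 46.7 in libraries labelled KO+CFLAR. The difference was 0.89 ± 0.09 (SE, adjusted p = 0.000211). KO1 was -0.00 from WT (adjusted p = 0.978) and KO2 was -0.89 from it (adjusted p = 1.83e-07). CEP290 was the single call among 34 CEP genes, a list also chosen afterwards, whose median was -0.01. CEP350, with 855 windows, averaged 105 ± 0.67 CPM in KO1 and 101 ± 3.5 in KO2, and PCNT, or pericentrin, averaged 33.7 ± 2.6 and 34.9 ± 0.62 CPM. CCDC88A, or girdin, an actin-binding coiled-coil protein, fell in both lines against WT and less so in KO1, at 35.5 ± 2.1 CPM in KO1, 23.8 ± 0.95 in KO2 and 286 ± 20 in WT (log2 difference 0.58 ± 0.09, adjusted p = 0.0143). Leaving out KO1 replicate 1 or either KO2 library ended the CCDC88A call (adjusted p = 0.139 to 0.183), as did limma-voom (adjusted p = 0.137).

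**Figure D2:**
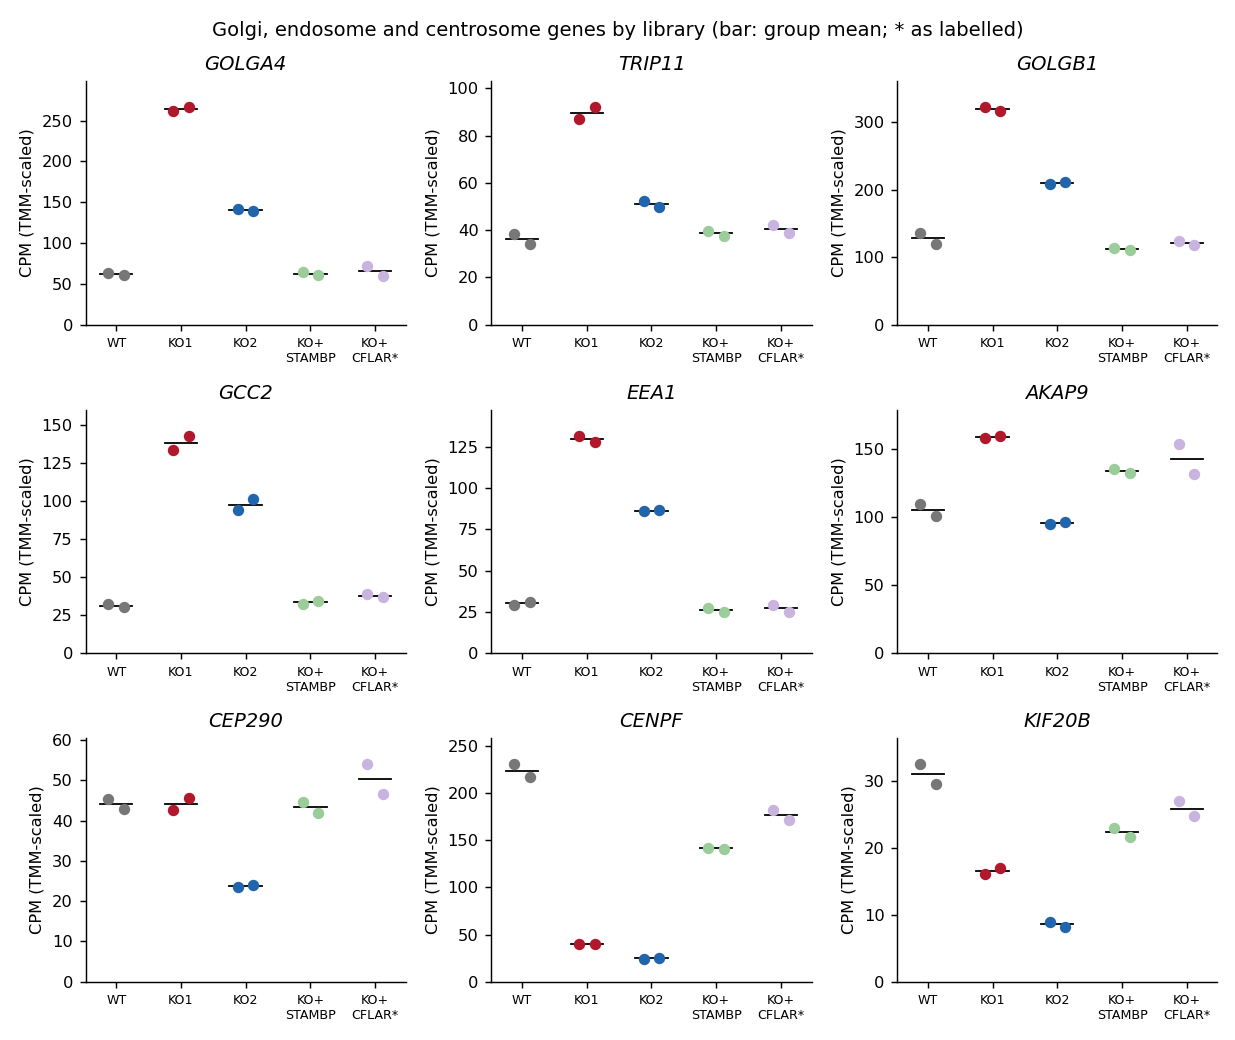
CPM (vertical axes, from 0) of 9 called genes in each of the 10 libraries, grouped on the horizontal axes, with a bar at each group mean. The KO1 points lie above the KO2 points in all 9 panels, both lines lie above WT in the Golgi and endosome genes, and both lie below WT in CENPF and KIF20B.

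Mitotic genes were low in both knockout lines, and 2 of them were less low in KO1. CENPF (ENSG00000117724, chromosome 1, 214603195 to 214664588, plus strand), a kinetochore protein with 1300 windows, is the first. The level of CENPF was 40.0 and 40.3 CPM in KO1, 24.4 and 25.3 in KO2, 230.5 and 217 in WT, 141 and 141 with added STAMBP and 182 and 171 in libraries labelled KO+CFLAR. The line difference was 0.69 ± 0.07 (SE, adjusted p = 0.000257), and the changes against WT were -2.48 in KO1 and -3.17 in KO2. KIF20B (ENSG00000138182, chromosome 10, 89701610 to 89774939, plus strand), a kinesin of cytokinesis with 1173 windows, is the other. Levels of KIF20B were 16 and 16.9 CPM in KO1, 8.93 and 8.20 in KO2, 32.5 and 29.4 in WT, 23 and 21.7 with added STAMBP and 26.9 and 24.8 in libraries labelled KO+CFLAR. The difference was 0.95 ± 0.12 (SE, adjusted p = 0.00201), and without KO2 replicate 2 the call was lost (adjusted p = 0.0785). All 54 genes of the mitosis list were called lower than WT in both lines, beside 37.5% (KO1) and 37.3% (KO2) of all tested genes. Between the lines 2 were called higher and 0 lower, and the median was 0.04. MKI67, the proliferation marker, averaged 21.2 ± 2 and 23.5 ± 1.8 CPM against 382 ± 14 in WT, and TOP2A averaged 31.9 ± 0.11 and 32.9 ± 1.3 against 463 ± 1.6. CENPE, a kinetochore motor with 2105 windows, was at 7.21 and 9.38 CPM in KO1 and 5.75 and 3.81 CPM in KO2, and ASPM, a spindle-pole protein of primary microcephaly, was at 15.1 and 13.8 CPM in KO1 and 8.73 and 10.7 CPM in KO2. Neither passed the test, with differences of 0.80 ± 0.21 (SE, adjusted p = 0.453) in CENPE and 0.57 ± 0.15 (SE, adjusted p = 0.453) in ASPM. Of 33 primary microcephaly and centrosome genes, 0 were called, 2 were higher and 2 lower at an unadjusted p under 0.05, and the median was -0.01.

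Nuclear proteins made up the next group. TPR (ENSG00000047410, chromosome 1, 186311652 to 186375693, minus strand), the basket protein of the nuclear pore, has 788 windows. TPR was found at 312 and 309 CPM in KO1, 223 and 219.9 in KO2, 209 and 199 in WT, 176 and 162 with added STAMBP and 193 and 178 in libraries labelled KO+CFLAR. The difference was 0.49 ± 0.05 (SE, adjusted p = 0.000211). ANKRD12 (ENSG00000101745, chromosome 18, 9136228 to 9285985, plus strand), an ankyrin-repeat cofactor of nuclear receptors with 1625 windows, lay on opposite sides of WT in the lines. ANKRD12 stood at 79.5 and 74.3 CPM in KO1, 41.1 and 42.3 in KO2, 70.7 and 61.8 in WT, 77.8 and 80.8 with added STAMBP and 87.8 and 74.3 in libraries labelled KO+CFLAR. The lines differed by 0.88 ± 0.09 (SE, adjusted p = 0.000211), with KO1 above WT by 0.22 (adjusted p = 0.0214) and KO2 at -0.66 (adjusted p = 6.77e-06). SYNE2, a nesprin that links the nucleus to the cytoskeleton, averaged 121 ± 0.82 CPM in KO1, 86.9 ± 3.2 in KO2 and 509.9 ± 15 in WT, a line difference of 0.48 ± 0.06 (SE, adjusted p = 0.00201) that lost its call without KO2 replicate 2 (adjusted p = 0.08). DST, or dystonin, a giant linker of cytoskeletal filaments, averaged 577 ± 3.8, 415 ± 2.7 and 331 ± 13 CPM in KO1, KO2 and WT (log2 difference 0.48 ± 0.05, adjusted p = 0.000255). The chromatin remodeller ATRX averaged 142 ± 0.15, 105 ± 2.5 and 206 ± 21 CPM in KO1, KO2 and WT (log2 difference 0.43 ± 0.07, adjusted p = 0.0263), and BOD1L1, a protector of stalled replication forks, averaged 159.8 ± 3, 123 ± 5.3 and 80.3 ± 6.6 CPM in KO1, KO2 and WT (log2 difference 0.38 ± 0.06, adjusted p = 0.0263). ZNF292, a zinc finger protein, averaged 207 ± 2.9, 164 ± 2.5 and 134 ± 5.5 CPM in KO1, KO2 and WT (log2 difference 0.34 ± 0.05, adjusted p = 0.014), and ESF1, a nucleolar protein of ribosome biogenesis, 42.1 ± 1.2, 30.4 ± 0.56 and 31.6 ± 0.52 CPM in KO1, KO2 and WT (log2 difference 0.47 ± 0.07, adjusted p = 0.0146). These last 4 calls were lost in other fits. Each was lost without KO1 replicate 1 and without either KO2 library, and those of ATRX and BOD1L1 also without KO1 replicate 2. BOD1L1 was lost, besides, without either KO+STAMBP library. The adjusted p was then 0.0838 to 0.291 for ATRX, 0.0569 to 0.386 for BOD1L1 and 0.0886 to 0.212 for ZNF292 and ESF1. By DESeq2 ESF1 was not called (adjusted p = 0.0814), nor was ATRX by limma-voom (adjusted p = 0.0955).

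The shift towards KO1 was seen in genes with 600 or more A-rich windows. Among 10267 protein-coding genes at 10 CPM or more, the median line difference was -0.02 for the 7384 genes with 0 to 49 windows, -0.02 for 1953 genes with 50 to 149, -0.01 for 606 genes with 150 to 299 and -0.01 for 244 genes with 300 to 599. It was 0.08 for the 46 genes with 600 to 899 windows, of which 78.3% were positive, and 0.38 for the 34 genes with 900 or more, of which 85.3% were positive. Over all 10267 genes 40.8% were positive. Of the 34 genes, 15 (44.1%) were called higher in KO1 and 0 lower, where 0.185% of the 10267 were called higher. Of the 19 genes called higher in this set, 18 had at least 300 windows, as 3.16% of the set has, and the other was PTCHD4. Each of the 4 pairs of a KO1 with a KO2 library gave the 34 genes a positive median, 0.34, 0.37, 0.39 and 0.41. The feature was chosen from the called genes, and 15 of the 34 were called on these same libraries. These medians and the 44.1% therefore describe the values that led to the feature and are no separate support. Replicate 1 minus replicate 2 gave medians of -0.01 in KO1 and -0.02 in KO2, and of 0.09 in WT, 0.00 with added STAMBP and 0.18 in libraries labelled KO+CFLAR. Replicates of 2 other groups thus differed in the same genes by up to 0.18 on the log2 scale, and the part of such spread between libraries in the line difference was not tested. Against WT, the median of the 34 genes was -0.14 in KO1 and -0.41 in KO2, with WT shared by both values.

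**Figure D3:**
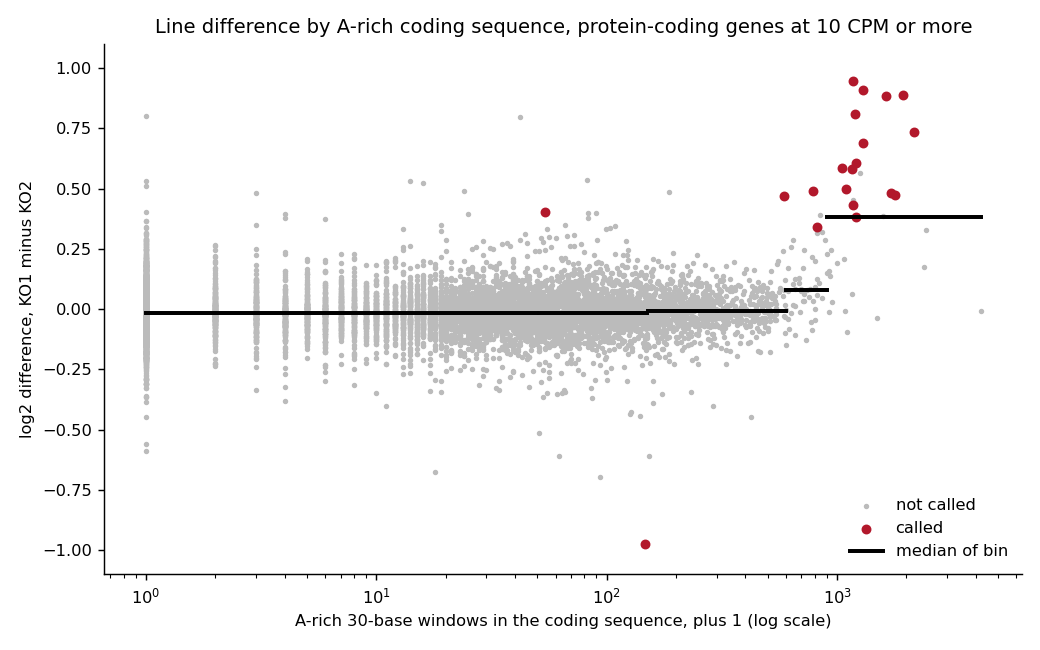
Log2 difference between KO1 and KO2 (vertical axis) against the number of A-rich windows plus 1 (horizontal log axis) for 10267 protein-coding genes at 10 CPM or more, with called genes in red and the median of each bin as a black bar; 1 gene lies outside the vertical axis. The bars stay near 0 up to 599 windows and reach 0.38 at 900 or more.

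Genes were also grouped by coding length and by base content. Among genes with at least 4000 coding bases, the 503 with under 150 windows had a median of -0.01 and 0 calls, the 291 with 150 to 599 windows had -0.02 and 0 calls, and the 70 with 600 or more had 0.16 and 17 calls, all higher in KO1. Median coding length in these groups was 5178, 5574 and 7711.5 bases, in that order, so length was not held fixed. The part of length in the difference was not tested. The 126 genes with under 2000 coding bases and at least 37% A had a median of -0.00 and 0 calls. Across the 10267 genes, which share the same 4 libraries and are not replicates, the line difference had a Pearson correlation of 0.19 with the number of windows (Spearman 0.02), 0.08 with coding length (Spearman 0.09), 0.08 with the longest coding exon (Spearman 0.09), 0.00 with the percentage of A (Spearman -0.03) and 0.01 with the GC percentage (Spearman 0.01). The high Pearson and low Spearman value for windows go with a difference carried by the few genes at the far end. The windows were chosen from the called genes. The 17 calls, the contrast with 0 calls and the correlation with windows therefore describe the same values and are no separate support. Of the 34 genes with 900 or more windows, 19 were not called. Of these 19, 14 had a positive difference, the median was 0.16 and the range ran from -0.10 to 0.57, the highest being ASPM. Those near 0 included the muscle giant TTN (4199 windows, -0.01), the nesprin SYNE1 (950 windows, 0.03), PCLO (1076 windows, -0.01) and BPTF (924 windows, -0.01). The multicopy NBPF genes, whose reads near-identical copies may share, were at -0.04 for NBPF10, -0.10 for NBPF14, 0.38 for NBPF19 and 0.18 for NBPF20. ANKRD26, a ciliary-base protein with 1168 windows, also missed the threshold (log2 difference 0.45 ± 0.11, adjusted p = 0.335). So did 2 genes with 600 to 899 windows, REV3L, the catalytic subunit of a translesion polymerase (log2 difference 0.32 ± 0.07, adjusted p = 0.158), and RAD50, a double-strand break repair protein (log2 difference 0.29 ± 0.07, adjusted p = 0.305). The uncalled genes named here were chosen after their values were seen.

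A few called genes had few such windows or no coding sequence. PURPL (ENSG00000250337, chromosome 5, 27472292 to 27496401, plus strand), a long noncoding RNA induced by p53, was at its highest in KO1. PURPL measured 421 and 415 CPM in KO1, 287 and 286 in KO2, 19.9 and 14.8 in WT, 21.5 and 21.8 with added STAMBP and 19.7 and 18.1 in libraries labelled KO+CFLAR. The line difference was 0.55 ± 0.05 (SE, adjusted p = 0.000211), beside rises against WT of 4.60 in KO1 and 4.06 in KO2. PTCHD4 (ENSG00000244694, chromosome 6, 47878028 to 48068689, minus strand), a patched-domain protein also known as a p53 target, showed the same order. PTCHD4 reached 82.7 and 82.1 CPM in KO1, 63.6 and 61.2 in KO2, 17.9 and 16.9 in WT, 14.4 and 14.2 with added STAMBP and 15.3 and 15.5 in libraries labelled KO+CFLAR. Its difference was 0.40 ± 0.05 (SE, adjusted p = 0.00238). Without KO2 replicate 2 (adjusted p = 0.08), and by DESeq2 (adjusted p = 0.0977), it was not called. The 32 p53 targets of the gene list, which holds neither of these, had a median near that of all genes. In edgeR's test 0 were called, 0 had an unadjusted p under 0.05, the median was -0.01 and the range ran from -0.10 to 0.19. Against WT, 31 of the 32 were called higher in each line, beside 36.1% (KO1) and 36.2% (KO2) of all tested genes.

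JPH4 (ENSG00000092051, chromosome 14, 23568035 to 23578800, minus strand), a junctophilin that joins the plasma membrane to the endoplasmic reticulum in neurons, was nearly lost in both lines. The level of JPH4 was 1.82 and 1.63 CPM in KO1, 0.0661 and 0 in KO2, 74.7 and 75.6 in WT, 126 and 129 with added STAMBP and 125 and 126 in libraries labelled KO+CFLAR. KO1 held 58 counts and KO2 held 1, a ratio of 56.1 with a 95% counting interval of 9.69 to 2256, and the test gave an adjusted p of 0.000403. The neuron list had 1 of 48 genes called and a median of -0.01. Against WT, 45 of the 48 were called lower in each line, beside 37.5% (KO1) and 37.3% (KO2) of all tested genes. ZMYM6 (ENSG00000163867, chromosome 1, 34986165 to 35031968, minus strand), a zinc finger protein, was lower in KO1. Levels of ZMYM6 were 12.7 and 11.4 CPM in KO1, 24.3 and 23.3 in KO2, 23.8 and 22.1 in WT, 26.1 and 24.1 with added STAMBP and 22.9 and 17.4 in libraries labelled KO+CFLAR. The difference was -0.97 ± 0.13 (SE, adjusted p = 0.00446), KO1 being -0.92 from WT (adjusted p = 1.28e-05) and KO2 0.05 from it (adjusted p = 0.692). Without KO2 replicate 2 the adjusted p was 0.0599. KCNRG (ENSG00000198553, chromosome 13, 50015254 to 50020922, plus strand), a regulator of potassium channels, had 0 counts in KO1. KCNRG was found at 0 and 0 CPM in KO1, 1.26 and 0.808 in KO2, 2.21 and 2.2 in WT, 2.63 and 2.41 with added STAMBP and 1.63 and 2.0 in libraries labelled KO+CFLAR. KO2 held 33 counts, at least 11.4-fold above the floor of 3 counts over the KO1 libraries, leaving out the counting error of the 33. In edgeR's test the adjusted p was 0.039. KCNRG overlaps TRIM13 and the antisense gene DLEU2 in GENCODE, so its count is uncertain. The call was lost in 9 of the 10 fits that left out a library (adjusted p = 0.0508 to 0.277), and with the 4 knockout libraries alone (adjusted p = 0.118). ZNF395, a zinc finger factor of chromosome 8, was higher in KO1 and in the libraries labelled KO+CFLAR. ZNF395 stood at 8.48 and 9.32 CPM in KO1, 1.46 and 3.0 in KO2, 1.34 and 2.30 in WT, 0.516 and 1.55 with added STAMBP and 15.8 and 11.7 in libraries labelled KO+CFLAR. The difference was 1.96 ± 0.32 (SE, adjusted p = 0.0263), which lost its call without any 1 of the 4 knockout libraries (adjusted p = 0.074 to 0.287) and by limma-voom (adjusted p = 0.0955). CCDC39, a ruler protein of motile cilia with 525 windows, averaged 5.38 ± 0.33 CPM in KO1, 2.07 ± 0.5 in KO2 and 8.21 ± 0.9 in WT (log2 difference 1.36 ± 0.24, adjusted p = 0.0479), and lost its call in 8 of the 10 such fits (adjusted p = 0.0562 to 0.41), with the 4 knockout libraries alone (adjusted p = 0.0805) and by limma-voom (adjusted p = 0.132).

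**Figure D4:**
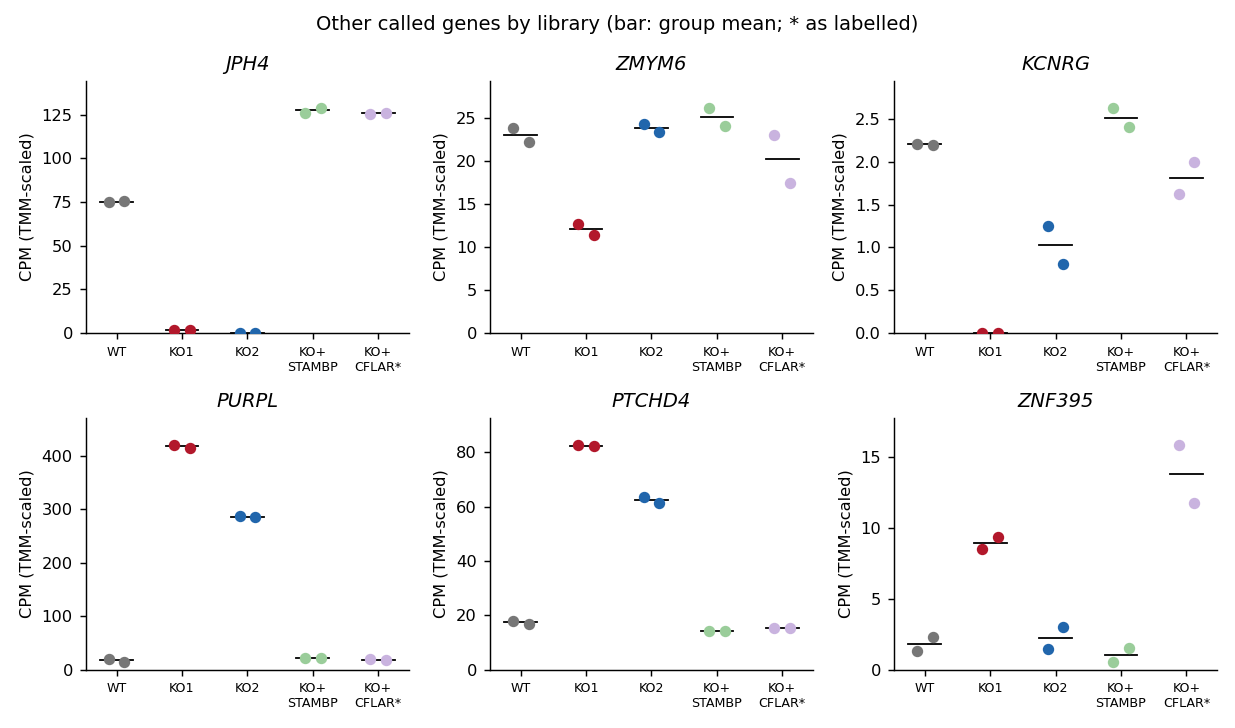
CPM (vertical axes, from 0) of 6 other called genes in each of the 10 libraries, grouped on the horizontal axes, with a bar at each group mean. JPH4, PURPL and PTCHD4 are far from WT in both lines, ZMYM6 is low in KO1 alone, KCNRG is at 0 in KO1, and ZNF395 is high in KO1 and in the libraries labelled KO+CFLAR.

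The 5 called genes without a symbol were of low level. ENSG00000273275, annotated as antisense (chromosome 2, 68179833 to 68180532), had 76 counts in KO1 and 0 in KO2, at least 24.5-fold higher, and 0 in the other 3 groups. ENSG00000261759, also antisense (chromosome 16, 19119976 to 19121629), had 74 counts in KO1 and 0 in KO2, at least 23.9-fold higher. In edgeR's test KO1 was above WT by 3.17 (adjusted p = 0.000439), and KO2 was not called against WT (adjusted p = 0.0704). ENSG00000265401, an antisense gene too (chromosome 17, 16382152 to 16382669), went the other way, with 0 counts in KO1 and 90 in KO2, at least 31.0-fold lower in KO1. By the same test its KO2 level was above WT by 3.50 (adjusted p = 0.000332), and KO1 was not called against WT (adjusted p = 0.107). These folds put 3 counts in place of 0 and leave out the counting error of the higher line. With no strand setting given in the sources used here, reads of an antisense gene and its partner cannot be told apart. ENSG00000272884 averaged 6.97 ± 2.2 CPM in KO1, 2.59 ± 0.074 in KO2 and 0.979 ± 0.068 in WT (log2 difference 1.45 ± 0.24, adjusted p = 0.0263). ENSG00000288710 averaged 0.153 ± 0.06, 1.65 ± 0.37 and 0.705 ± 0.24 CPM in KO1, KO2 and WT (log2 difference -3.42 ± 0.57, adjusted p = 0.0263), so that KO1 was below WT (adjusted p = 0.011) and KO2 above it (adjusted p = 0.0085). Leaving out a knockout library ended each of these 5 calls in 3 of the 4 cases, with adjusted p = 0.0764 to 0.326. Other fits ended them too. DESeq2 did not call ENSG00000273275 (adjusted p = 1), ENSG00000261759 (0.909), ENSG00000272884 (0.462) or ENSG00000288710 (0.132). By limma-voom, ENSG00000261759 (adjusted p = 0.0704), ENSG00000265401 (0.144), ENSG00000272884 (0.0888) and ENSG00000288710 (0.0949) were not called.

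Against WT the called genes took several positions. Of the 30, 22 were called against WT in both lines. Taken singly, KO1 had 73.6% and KO2 73.5% of all tested genes called against WT. The share of all tested genes called in both lines at once was not counted, so the 22 have no like measure beside them. Of the 26 that were higher in KO1, 12 lay above WT in both lines, among them the 4 golgins, EEA1, TPR and DST, and 7 lay below WT in both, among them CENPF, KIF20B, SYNE2, CCDC88A and ATRX. Of all tested genes, 36.1% were called above and 37.5% below WT in KO1, and 36.2% and 37.3% in KO2. These are shares for each line singly, and shares for both lines at once were not counted. KO2 was the line nearer to WT for 20 of the called genes and KO1 for 10, a split not counted over all tested genes. ANKRD12 and ENSG00000288710 were called on opposite sides of WT. The 2 comparisons share the WT libraries, so no agreement between them is counted.

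Gene lists were examined for shared shifts. Of 43 lists, 7 held a call, and all 43 had a median within 0.1 of 0, beside -0.01 over all tested genes. Among the 7 were the 2 lists chosen after the values were seen, the golgins and the CEP genes. KIF20B was counted in both the mitosis and the kinesin list. The 36 epithelial and non-neural ectoderm genes had 0 calls and a median of -0.03. Against WT, 34 of them were called higher in each line, beside 36.1% (KO1) and 36.2% (KO2) of all tested genes. CDH1, or E-cadherin, averaged 1109 ± 0.79 CPM in KO1 and 1182 ± 18 in KO2 against 7.46 ± 0.39 in WT. The 36 neural progenitor and radial glia genes had 0 calls and a median of -0.01. Against WT, 31 were called lower in each line, beside 37.5% (KO1) and 37.3% (KO2) of all tested genes. SLC1A3, a glutamate transporter of radial glia and the progenitor gene of lowest p, averaged 42.4 ± 0.86 and 37.6 ± 0.096 CPM against 705 ± 5.6 in WT (log2 difference 0.17 ± 0.05, adjusted p = 0.738). Death receptors and caspases (22 genes), the BCL2 family (21), NF-kappaB targets (28) and interferon-stimulated genes (39) each had 0 calls, with medians of -0.01, -0.03, 0.00 and -0.04. At an unadjusted p under 0.05 these 4 lists held 1 gene higher and 4 lower in KO1. DDX58, the RNA sensor RIG-I, was 1 of the 4, at 16.1 ± 2 CPM in KO1 and 24.3 ± 6.3 in KO2 (log2 difference -0.61 ± 0.22, adjusted p = 0.84). The 83 cytosolic ribosomal protein genes had a median of -0.07 and 0 calls, with 0 higher and 13 lower at an unadjusted p under 0.05. Of all 21063 tested genes, 549 were higher and 589 lower at that level. The summed level of the ribosomal genes was 35466 and 37998 CPM in KO1 and 38324 and 37942 in KO2, so KO1 replicate 1 stood apart. Their median ran from -0.114 to -0.004 over the settings of the fit. The 15 mitochondrially encoded genes had a median of -0.06 and 0 calls, with 0 higher and 4 lower. Their summed level was 36549 and 39927 CPM in KO1 and 39998 and 40405 in KO2, again lowest in KO1 replicate 1. The median ran from -0.139 to -0.013 over the settings. Of 501 ZNF genes, ZNF292 and ZNF395 were called higher and 0 lower. By chromosome, medians ran from -0.03 on X to -0.00 on 19 over chromosomes 1 to 22 and X, so no chromosome was shifted as a whole by as much as 0.1 on the log2 scale.

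**Figure D5:**
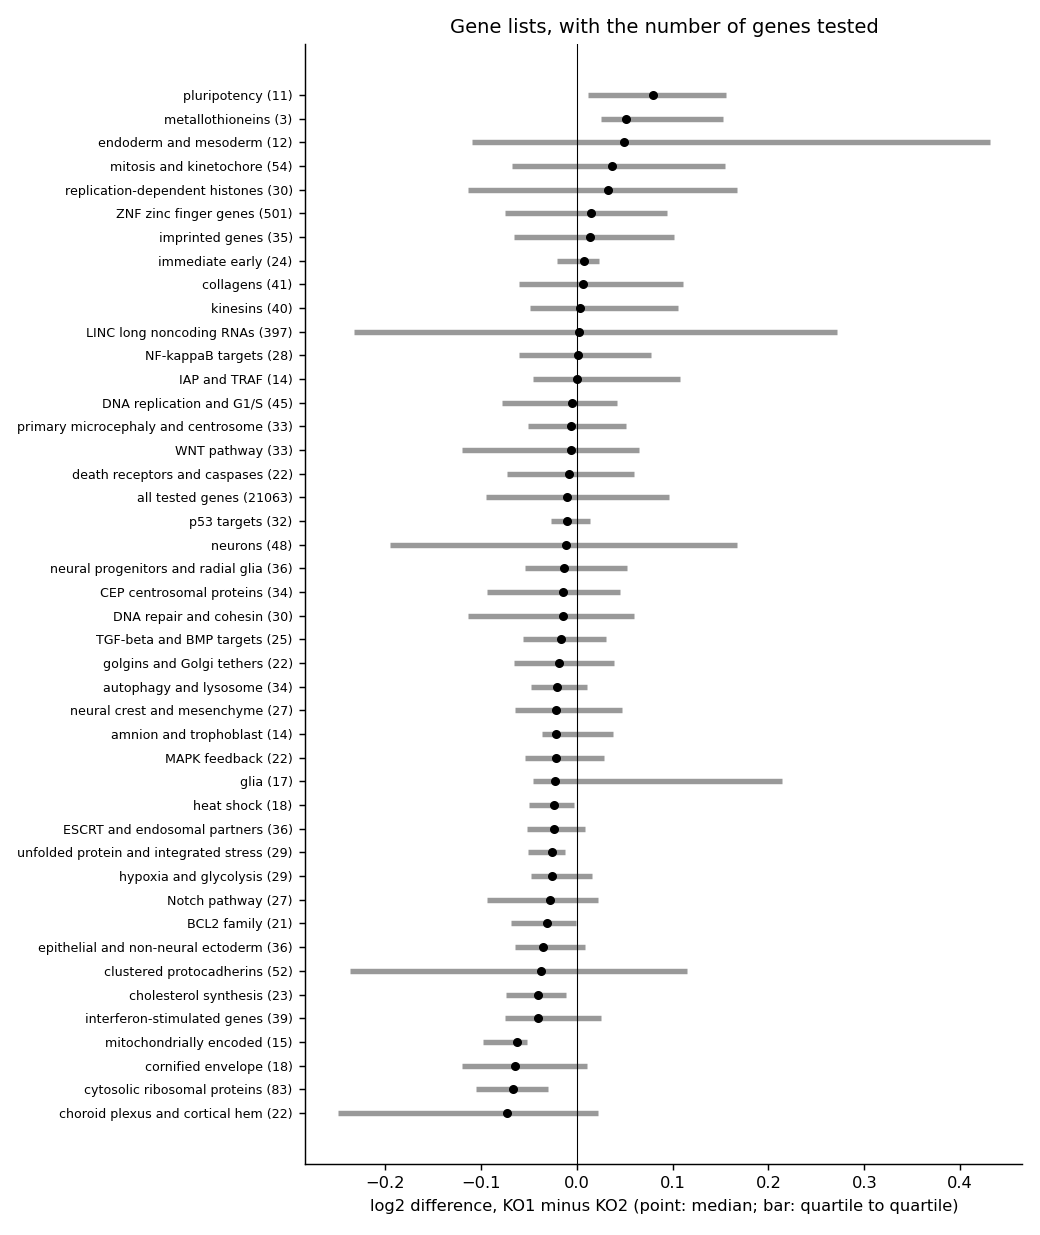
Median (points) and the range between the quartiles (bars) of the log2 difference between KO1 and KO2 (horizontal axis) for each of 43 gene lists and all tested genes, with the number of tested genes in brackets. All points lie within 0.1 of 0.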

How the data were processed

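RNA sequencing counts of 10 libraries were used. The authors deposited whole-number counts per gene, without normalization. Tools listed in the submitters' processing notes are RSEM 1.2.4, fastp 0.20.0 and DESeq2, with hg38 and GRCh38 as builds. Whether RSEM estimates were rounded, the annotation release and the strand setting are not given in the sources used here. These counts were fitted by edgeR's quasi-likelihood method (version 4.0.16, R 4.3.3; legacy fitting off, TMM factors, filterByExpr, a mean for each of 5 groups over all 10 libraries, 5 residual degrees of freedom), and KO1 was contrasted with KO2. A gene was called where the adjusted p (Benjamini-Hochberg) was under 0.05. The fit was tested on simulated data. GENCODE release 29 (GRCh38) gave positions and coding sequences, and 57973 of 60231 Ensembl identifiers matched it.

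The members and lists were chosen with earlier results of these data known. Named genes are STAMBP, STAMBPL1, CFLAR, every called gene with a symbol, genes on opposite sides of WT, the lowest-p member of each list and the largest differences at 20 CPM or more. Called genes without a symbol, genes named for their A-rich windows, the markers of the cell type check and members of the 2 lists added later were chosen after their values were seen. Y-linked genes and XIST are not reported. Alternatives were DESeq2 1.42.0, limma-voom 3.58.1, other scaling, other filters, legacy fitting, the 4 knockout libraries alone, a replicate block and each library left out.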

Additional observations from a re-analysis of the deposited data

Results flagged for a closer look

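The 30 called genes differed between the KO1 and the KO2 libraries in edgeR's direct test. The WT level cancels out of the difference, while the spread was estimated over all 10 libraries, WT included. With 2 libraries a line, differences of line, culture and library handling cannot be told apart, and 13 of the 30 were called in every setting. In brackets is the fitted log2 KO1 minus KO2, which equals the KO1 difference from WT less the KO2 difference from WT. Among golgins these were GOLGA4 (0.91), TRIP11 (0.81), GOLGB1 (0.60) and GCC2 (0.50). Among endosomal, centrosomal and ciliary genes they were EEA1 (0.59), AKAP9 (0.73), CEP290 (0.89), CCDC88A (0.58) and CCDC39 (1.36), and among mitotic genes CENPF (0.69) and KIF20B (0.95). Nuclear and linker proteins were TPR (0.49), ANKRD12 (0.88), SYNE2 (0.48), DST (0.48), ATRX (0.43), BOD1L1 (0.38), ZNF292 (0.34) and ESF1 (0.47). Genes with under 150 A-rich windows or no coding sequence were PURPL (0.55), PTCHD4 (0.40), JPH4 (5.53) and ZNF395 (1.96), all higher in KO1, and ZMYM6 (-0.97) and KCNRG (-7.25), both lower in KO1. The genes without a symbol were ENSG00000273275 (8.40), ENSG00000288710 (-3.42), ENSG00000265401 (-8.69), ENSG00000272884 (1.45) and ENSG00000261759 (8.36). Fitted values of JPH4, KCNRG and the 3 antisense genes, where a line has 0 or 1 count, depend on the prior count and are no bounds.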

How the results depend on the processing

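Under 19 other settings of the fit the 30 genes kept their direction wherever they were tested, and 13 of them were called in every setting. The filter of 50 counts left 5 of the 30 untested, KCNRG and 4 genes without a symbol. These 13 were GOLGA4, TRIP11, GOLGB1, GCC2, EEA1, AKAP9, CEP290, CENPF, TPR, ANKRD12, DST, PURPL and JPH4. Leaving out each library gave 15 to 51 calls, 14 to 30 of them higher and 1 to 26 lower in KO1. A lone remaining library was assumed to vary like the other groups. The number lower in KO1 was 1 with at least 50 counts in 2 libraries, where fewer genes were tested, and 2 with limma-voom, where the cause was not tested. The labels do not say whether replicate numbers pair the samples, and the main fit used no pairing. Deviations of same-numbered libraries correlated at 0.07 between KO1 and KO2 over the tested genes. A pairing confined to some genes was not tested. With the replicate block there were 34 calls, 27 higher and 7 lower, and 29 of them were among the 30, KCNRG being lost (adjusted p = 0.0533). The median of genes with 900 or more A-rich windows was 0.34 to 0.43 over the settings, and list medians ran from -0.19 to 0.16. Below 10 CPM the depth limits what could be called.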

Other observations

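Lineage and signalling genes with the lowest p of their lists were examined as well, and edgeR's quasi-likelihood test called none of those given here. HNF4A, a liver and gut transcription factor, averaged 1.31 ± 0.098 CPM in KO1, 0.281 ± 0.071 in KO2 and 0.492 ± 0.2 in WT (log2 difference 2.22 ± 0.52, adjusted p = 0.295). The clustered protocadherin PCDHGB3, a cell-surface adhesion protein, averaged 0.0977 ± 0.14 CPM in KO1, 1.07 ± 0.36 in KO2 and 1.03 ± 0.35 in WT (log2 difference -3.45 ± 1.17, adjusted p = 0.815). Of 52 clustered protocadherins 0 were called, with 1 higher and 4 lower in KO1 at an unadjusted p under 0.05 and a median of -0.04. LINC01036, a long noncoding RNA far above WT in both lines, averaged 102 ± 0.23 CPM in KO1, 85.4 ± 2.8 in KO2 and 1.46 ± 0.5 in WT (log2 difference 0.25 ± 0.06, adjusted p = 0.318), and of 397 LINC genes 0 were called, with 12 higher and 6 lower at an unadjusted p under 0.05. SMAD9, a BMP signal transducer, averaged 6.23 ± 0.95 CPM in KO1, 4.50 ± 0.092 in KO2 and 27.9 ± 1.2 in WT (log2 difference 0.46 ± 0.17, adjusted p = 0.84). NIPBL, the cohesin loader, has 993 A-rich windows and averaged 173 ± 2.5 CPM in KO1, 151 ± 4 in KO2 and 124 ± 7.4 in WT (log2 difference 0.19 ± 0.05, adjusted p = 0.467).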
